A study of Mus musculus with 2 samples.

Results

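Glycolysis was followed through 10 genes across the cells of the mouse spleen: the glucose transporter gene Slc2a1 and the enzyme genes Hk1, Hk2, Gpi1, Aldoa, Tpi1, Pgk1, Eno1, Pkm and Ldha. They were found by their symbols in the deposited gene lists, where 11 of the rows for 26124 genes carried a symbol of one of the 10 genes. Aldoa was listed in a pair of rows, and the row used was ENSMUSG00000030695, since the other held 2 UMIs in each library. The levels were measured by droplet scRNA-seq, in which each captured RNA molecule is tagged at its 3′ end with a unique molecular identifier (UMI), so that a transcript counts once whatever its length.

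Spleen cells bound by magnetic beads coated with an antibody against F4/80, a surface protein of macrophages, were sequenced in 2 libraries, 1 per condition and each from the spleen of 1 untreated mouse aged 12 to 16 weeks. The mouse labelled SCD came from the Berkeley model of sickle cell disease and was homozygous for Hbatm1Paz, for Hbbtm1Tow and for Tg(HBA-HBBs)41Paz, that is, for deletions of the mouse α- and β-globin genes and for a transgene of human globins that include sickle β-globin. The mouse labelled wild-type was a non-sickling control on the same mixed background, which was likewise homozygous for Hbatm1Paz but heterozygous for Hbbtm1Tow and hemizygous for Tg(HBA-HBBs)41Paz, so that by the labels both mice shared the α-globin deletion and the transgene. Mature erythrocytes had been lysed before the beads were added, and other cells bound to the beads or were carried along, so shares of cell types are those of this preparation.

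The libraries held 145953464 and 73986356 UMIs in 24144 and 15442 barcodes, of which 19418 and 12279 passed the limits on genes, mitochondrial and ribosomal RNA, with median depths of 4115.5 and 4571 UMIs. The globin genes went against the labels. Hbb-bs was at 156 counts per 1000000 UMIs (CPM) in erythroid-like cells of the wild-type-labelled library and at 63338 CPM in those of the SCD-labelled library, whereas the SCD genotype lacks this gene. Hba-a1, an α-globin gene, reached 29635 and 34087 CPM there, although the genotype given for both mice lacks it. Every direction between the libraries given below is therefore a direction between their labels. In all, 107 barcodes occurred in both libraries, 65 of them among the kept cells, and each median below moved by at most 0.01 on the log2 scale without them.

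The cells were clustered without the 10 genes and named from marker genes, which left 3890 and 5094 of the kept cells in clusters without a name and out of the comparisons of classes. Erythroid-like cells numbered 2925 and 314 in the libraries labelled wild-type and SCD, red pulp macrophage-like (RPM-like) cells 4736 and 1589, Ly6c-high monocyte-like cells 997 and 782, Ly6c-low monocyte-like cells 415 and 954, mature dendritic cell-like (mature DC-like) cells 507 and 690, and B lymphocyte-like cells 533 and 1722. Clusters with RNA of both macrophages and erythroid cells were kept apart as erythroblastic island-like (EBI-like) cells. The markers bore out the separation of the erythroid-like and RPM-like classes only in part. Of 13 red pulp macrophage markers, 13 were found in erythroid-like cells, at a summed 7070 and 3270 CPM, while RPM-like cells held 26431 and 23564 CPM. Of the 13 erythroid markers 12 were in the files, at a summed 706 and 154 CPM in RPM-like cells, while erythroid-like cells held 23974 and 27411 CPM. Since each condition had 1 mouse, the conditions could not be tested against each other, and the 95% intervals given in brackets cover counting error only.

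Glycolysis splits glucose into pyruvate and yields ATP without oxygen. The glucose is taken up by transporters such as Slc2a1, trapped by hexokinases, rearranged by Gpi1, split by aldolase and Tpi1, and carried through the steps of Pgk1, enolase and pyruvate kinase, which form ATP or prepare for it. Lactate dehydrogenase returns pyruvate to lactate and so keeps the pathway running. Mature red cells have no mitochondria and live on this pathway, whereas macrophages, dendritic cells and lymphocytes are known to raise it on activation, in part through the transcription factor HIF-1.

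The regions upstream of 5 of the genes are shown because these genes stand at the ends of the patterns below: Hk1, the gene highest in erythroid cells, Hk2 and Slc2a1, which start the pathway elsewhere, and Pgk1 and Ldha, whose regulation by HIF-1 is textbook knowledge. The sequences are from RefSeq on GRCm38.p6, read 5′ to 3′ on the strand of the gene, up to the annotated exon or, for Slc2a1, to the end of the motif that runs into it. Capitals mark CCNCACCC, a form of the CACC box bound by KLF1-type factors, in Hk1, and ACGTG, a core of the HIF-1 site, in the other genes, on either strand. The table gives 2 starts for Hk1. The last Hk1 line is a stretch before the second start, past the point where an exon of Hk1 annotated by GENCODE begins.
Hk1 start 1, chr10:62379909-62380158, minus strand: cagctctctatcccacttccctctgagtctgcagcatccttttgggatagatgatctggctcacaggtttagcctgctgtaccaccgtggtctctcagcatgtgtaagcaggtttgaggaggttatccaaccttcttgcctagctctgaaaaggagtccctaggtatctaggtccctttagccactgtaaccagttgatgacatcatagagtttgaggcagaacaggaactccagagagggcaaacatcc
Hk1 start 2, chr10:62340538-62340671, minus strand: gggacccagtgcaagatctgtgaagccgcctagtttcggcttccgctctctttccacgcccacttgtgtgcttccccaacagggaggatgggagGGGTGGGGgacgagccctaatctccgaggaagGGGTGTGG
Hk1 start 2, chr10:62340451-62340480, minus strand: atcgtgtcCCACACCCCACCCactctggct
Hk2, chr6:82774455-82774704, minus strand: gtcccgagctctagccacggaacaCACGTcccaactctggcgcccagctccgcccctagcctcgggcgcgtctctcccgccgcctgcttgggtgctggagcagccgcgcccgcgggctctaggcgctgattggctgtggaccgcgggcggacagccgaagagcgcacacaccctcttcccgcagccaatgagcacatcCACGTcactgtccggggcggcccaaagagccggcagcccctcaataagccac
Pgk1, chrX:106186850-106187099, plus strand: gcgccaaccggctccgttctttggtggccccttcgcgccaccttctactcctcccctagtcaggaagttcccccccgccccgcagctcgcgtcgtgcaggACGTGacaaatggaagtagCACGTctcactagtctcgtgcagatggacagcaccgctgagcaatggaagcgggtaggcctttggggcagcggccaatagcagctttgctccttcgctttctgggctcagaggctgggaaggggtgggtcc
Ldha start 1, chr7:46845554-46845803, plus strand: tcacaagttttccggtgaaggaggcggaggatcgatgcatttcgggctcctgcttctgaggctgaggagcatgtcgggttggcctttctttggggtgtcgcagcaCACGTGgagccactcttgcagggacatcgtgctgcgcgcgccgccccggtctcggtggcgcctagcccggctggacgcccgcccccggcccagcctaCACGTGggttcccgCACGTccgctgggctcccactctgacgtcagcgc
Slc2a1, chr4:119108495-119108713, plus strand: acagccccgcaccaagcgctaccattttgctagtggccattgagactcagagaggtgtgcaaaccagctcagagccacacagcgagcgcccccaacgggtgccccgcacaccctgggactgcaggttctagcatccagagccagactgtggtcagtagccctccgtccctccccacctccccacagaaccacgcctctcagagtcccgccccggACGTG

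In the 250 bases before each start, ACGTG was found on either strand for 6 of the 10 genes, in 41.2% of their 17 windows, against 16.6% of the 32851 windows of all genes in the table. CCNCACCC was found for 4 genes, Hk1, Aldoa, Eno1 and Pkm, in 23.5% of the windows against 14.9% of all windows. The second start of Hk1 held 4 copies, a number reached in 39 of the 32851 windows, and the first start held none. The window of the first Ldha start held 5 ACGTG matches, and that of the second start held none. Each of the 2 copies of CACGTG in the first window counts on both strands. CACGTG, the palindrome bound by MYC-type factors, was found in 6.02% of all windows. GCGTG, the other HIF-1 core, was found for 4 genes, in 35.3% of their windows against 28.2% of all windows. Windows of neighbouring starts can overlap, and a site they share is then counted in each. Starts 2 and 3 of Aldoa share their ACGTG site, and starts 2 and 3 of Eno1 share their GCGTG sites. The counts describe letters in these windows, and the second start of Hk1 also lies across the antisense gene Hk1os.

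Hk1 stood apart from the other 9 genes. Hk1 (ENSMUSG00000037012, chr10:62268855-62379908 on GRCm38) codes for the hexokinase that most tissues use at rest. It was at 205 [199 to 211] CPM in erythroid-like, 8.07 [6.77 to 9.55] in RPM-like, 34.1 in Ly6c-high monocyte-like, 17.7 in Ly6c-low monocyte-like, 12.4 in mature DC-like and 24.0 CPM in B lymphocyte-like cells of the wild-type-labelled library. The SCD-labelled library gave 185 [166 to 204], 4.07 [2.75 to 5.81], 41.3, 20.1, 25.7 and 20.8 CPM in the same order. Erythroid-like cells thus held the highest level in both libraries, 25.4-fold [21.4 to 30.3] and 45.4-fold [31.2 to 68.2] above RPM-like cells, the lowest, where the interval met that of mature DC-like cells in the wild-type-labelled library. With the mean of single-cell CPM these folds were 18.3 and 18.2, and among cells with at least 1000 genes 30.2 and 64.1. Ly6c-high monocyte-like cells came next, with an interval that met that of B lymphocyte-like cells in the wild-type-labelled library, and the intervals of B lymphocyte-like and Ly6c-low monocyte-like cells overlapped in both libraries.

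The same contrast was seen in the share of cells with a UMI at equal depth. After each cell was thinned to 1000 UMIs, Hk1 was found in 17.5% [16.1 to 18.9%] of 2901 and 13.7% [10.1 to 18.1%] of 313 erythroid-like cells, and in 0.990% [0.708 to 1.35%] of 4041 and 0.483% [0.195 to 0.993%] of 1448 RPM-like cells. Without thinning the shares were 63.8% and 53.8%, at median depths of 6137 and 5075 UMIs, against 2.72% and 1.70%, at 2115.5 and 4125 UMIs. Beside these shares, Hk1 in RPM-like cells was at 3.94% and 2.20% of its erythroid-like level, and the summed erythroid markers at 2.94% and 0.564% of theirs. The part of erythroid RNA in the RPM-like level of Hk1 was not tested.

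Hk2 (ENSMUSG00000000628, chr6:82725025-82774454), the inducible hexokinase, was lower in erythroid-like than in RPM-like cells, the reverse of Hk1. Its level in the wild-type-labelled library was 19.2 [17.4 to 21.1] CPM in erythroid-like, 59.0 in RPM-like, 118 [110 to 127] in Ly6c-high monocyte-like, 51.9 in Ly6c-low monocyte-like, 25.8 in mature DC-like and 21.1 CPM in B lymphocyte-like cells. In the other library these levels were 11.8 [7.55 to 17.5], 46.8, 102 [92.9 to 111], 51.1, 20.8 and 14.7 CPM. Ly6c-high monocyte-like cells were thus 6.18-fold and 8.65-fold above erythroid-like cells. The intervals of erythroid-like, B lymphocyte-like and mature DC-like cells overlapped from one neighbour to the next in both libraries.

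**Figure D1:**
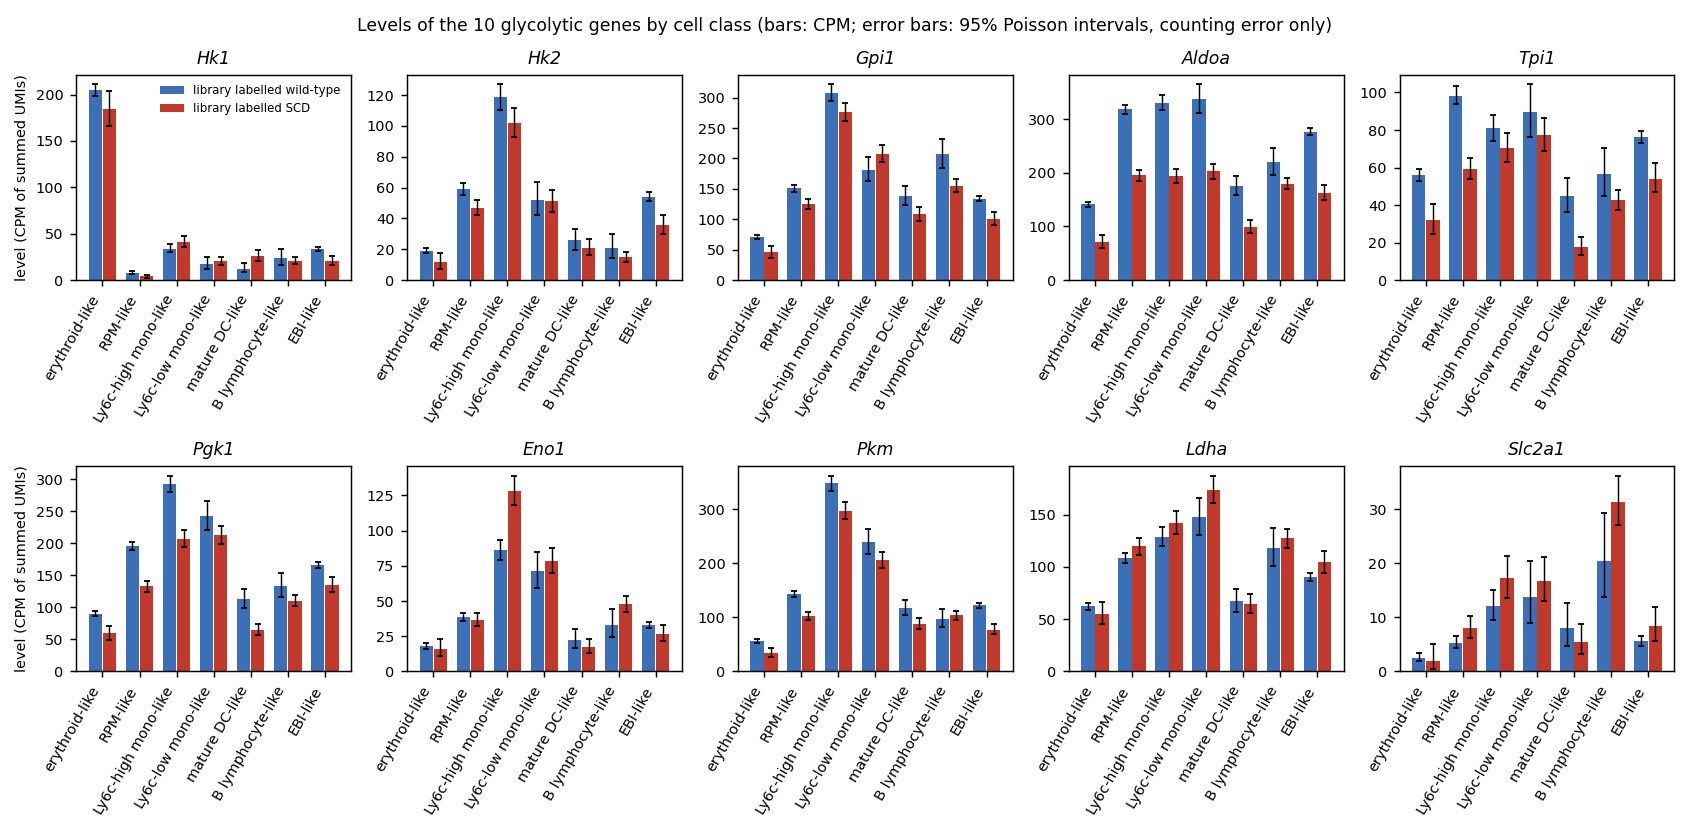
Levels of the 10 genes by cell class, in CPM of summed UMIs, in the wild-type-labelled library (blue) and the SCD-labelled library (red), with 95% Poisson intervals as error bars. Hk1 is tallest in erythroid-like cells, at 205 and 185 CPM, whereas the bars of Gpi1, Eno1 and Pkm are tallest in Ly6c-high monocyte-like cells and lowest in erythroid-like cells.

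Slc2a1 (ENSMUSG00000028645, chr4:119108711-119137983), which carries glucose into the cell, was the lowest of the 10 genes in erythroid-like cells. It was at 2.56 [1.94 to 3.33] CPM there, 5.34 in RPM-like, 12.1 in Ly6c-high monocyte-like, 13.8 in Ly6c-low monocyte-like, 8.0 in mature DC-like and 20.4 [13.7 to 29.3] CPM in B lymphocyte-like cells of the wild-type-labelled library. The levels labelled SCD were 1.96 [0.535 to 5.03], 8.0, 17.2, 16.7, 5.52 and 31.3 [27.0 to 36.2] CPM. B lymphocyte-like cells were highest in both libraries, by 7.98-fold and 15.9-fold over erythroid-like cells, where only 56 and 4 UMIs of Slc2a1 were counted. In the wild-type-labelled library the interval of B lymphocyte-like cells overlapped those of both monocyte-like classes. The intervals of erythroid-like and mature DC-like cells overlapped in the SCD-labelled library.

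Gpi1 (ENSMUSG00000036427, chr7:34201330-34230336) turns glucose phosphate into fructose phosphate. Its levels in the wild-type-labelled library were 71.3 [67.8 to 74.9] CPM in erythroid-like, 151 in RPM-like, 308 [295 to 322] in Ly6c-high monocyte-like, 182 in Ly6c-low monocyte-like, 139 in mature DC-like and 207 CPM in B lymphocyte-like cells. For the label SCD they were 45.7 [36.9 to 55.9], 124, 276 [261 to 291], 207, 109 and 155 CPM. Among the 6 classes, Gpi1 was highest in Ly6c-high monocyte-like cells and lowest in erythroid-like cells in both libraries, with no overlap of either interval with its neighbour.

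Aldolase A, encoded by Aldoa (chr7:126795234-126800751), splits the sugar into a pair of triose phosphates, and Tpi1 (ENSMUSG00000023456, chr6:124810586-124814296) turns one into the other. Aldoa was at 141 [136 to 146] CPM in erythroid-like, 318 in RPM-like, 330 in Ly6c-high monocyte-like, 337 [311 to 365] in Ly6c-low monocyte-like, 175 in mature DC-like and 220 CPM in B lymphocyte-like cells of the wild-type-labelled library, and at 70.7 [59.6 to 83.2], 195, 194, 203 [189 to 217], 99.4 and 180 CPM in those of the SCD-labelled library. RPM-like cells and both monocyte-like classes were close together at the top of the 6 classes, with overlapping intervals. Tpi1 was at 56.2, 98.4, 81.0, 89.5, 44.9 [36.5 to 54.5] and 56.4 CPM in the same classes of the first library and at 31.9, 59.4, 70.3, 77.4, 17.5 [13.2 to 22.9] and 42.7 CPM of the second. Mature DC-like cells, not erythroid-like cells, were lowest for Tpi1, although the intervals of these classes overlapped in the wild-type-labelled library.

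The genes for the later steps, up to pyruvate, were likewise lowest in erythroid-like cells and highest in monocyte-like cells among the 6 classes. Pgk1 (ENSMUSG00000062070, chrX:106187100-106203699), which forms ATP, was at 89.8 [85.8 to 93.8] CPM in erythroid-like, 196 in RPM-like, 293 in Ly6c-high monocyte-like, 242 in Ly6c-low monocyte-like, 113 in mature DC-like and 134 CPM in B lymphocyte-like cells of the wild-type-labelled library, and at 59.9 [49.7 to 71.5], 133, 207, 213, 65.0 and 111 CPM of the other. Eno1 (ENSMUSG00000063524, chr4:150236721-150248879), the widespread enolase, was at 18.0 [16.2 to 19.8], 38.7, 86.0 [79.2 to 93.3], 71.2, 22.7 and 33.1 CPM, and at 16.2 [11.2 to 22.8], 36.8, 128 [118 to 139], 78.3, 17.5 and 47.6 CPM. Pkm (ENSMUSG00000032294, chr9:59656368-59679375), the pyruvate kinase of most tissues, was at 56.6 [53.5 to 59.8], 143, 348 [334 to 362], 240, 117 and 97.2 CPM, and at 33.9 [26.4 to 42.9], 102, 297 [282 to 313], 206, 88.1 and 104 CPM. Pkm had the widest span of the 3 genes, with Ly6c-high monocyte-like cells 6.14-fold and 8.78-fold above erythroid-like cells. For Eno1 the intervals of erythroid-like and mature DC-like cells overlapped in both libraries, and for Pgk1 they overlapped in the SCD-labelled library. Near-identical copies of Eno1, Pgk1, Tpi1, Aldoa and Ldha elsewhere in the genome make their counts uncertain, since reads shared with a copy may have been dropped.

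Ldha (ENSMUSG00000063229, chr7:46841475-46855627), the lactate dehydrogenase subunit of glycolytic tissues, was at 62.3 [59.0 to 65.7] CPM in erythroid-like, 108 in RPM-like, 129 in Ly6c-high monocyte-like, 147 [130 to 166] in Ly6c-low monocyte-like, 67.1 [56.8 to 78.7] in mature DC-like and 118 CPM in B lymphocyte-like cells of the wild-type-labelled library. The corresponding levels for the label SCD were 55.0 [45.3 to 66.2], 120, 142, 174 [162 to 187], 64.7 and 127 CPM. Erythroid-like and mature DC-like cells shared the low end with overlapping intervals in both libraries. Of the 10 genes, Ldha had the narrowest span between classes in the wild-type-labelled library after Tpi1, 2.37-fold, and 3.17-fold in the other.

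Summed over the 10 genes, the level was 722 [711 to 733] CPM in erythroid-like, 1125 in RPM-like, 1739 [1708 to 1771] in Ly6c-high monocyte-like, 1392 in Ly6c-low monocyte-like, 725 [691 to 762] in mature DC-like and 931 CPM in B lymphocyte-like cells of the wild-type-labelled library. The sums labelled SCD were 512 [481 to 544], 829, 1475 [1440 to 1510], 1246, 513 [488 to 539] and 834 CPM. Ly6c-high monocyte-like cells therefore held 2.41-fold and 2.88-fold the sum of erythroid-like cells, which did not differ from mature DC-like cells beyond counting error. Of the 10 genes, 8 were lowest in erythroid-like cells in both libraries, Hk1 was highest there and Tpi1 was neither. The share of all genes lowest there was not counted. Against B lymphocyte-like cells, the median log2 ratio of erythroid-like cells was -0.64 over 9 measured genes of the wild-type-labelled library, beside -0.19 for all genes. In the SCD-labelled library it was -1.28 over 10 genes, beside -0.59 for all genes. With cell-wise scran size factors in place of CPM the number of genes lowest in erythroid-like cells was 3, and 3 genes rather than 8 were then lower in erythroid-like than in mature DC-like cells of both libraries. Against RPM-like and Ly6c-low monocyte-like cells, 9 of 10 genes were lower in erythroid-like cells of both libraries under every alternative. The share of all genes lower in erythroid-like cells than in these classes was not counted either.

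Set against RPM-like cells, the 9 genes other than Hk1 were at 32.5% to 57.5% of the RPM-like level in erythroid-like cells of the wild-type-labelled library and at 24.5% to 53.7% of it in the SCD-labelled library. The same percentage for all genes was not computed. Hk2 was at 32.5% [28.9 to 36.4%] and 25.2% [15.9 to 38.1%], and Pkm at 39.6% [37.0 to 42.5%] and 33.2% [25.5 to 42.5%]. Tpi1 was at 57.1% [53.0 to 61.5%] and 53.7% [40.7 to 69.8%]. Summed macrophage markers stood at 26.8% and 13.9% of their RPM-like level in the same erythroid-like cells, and their part in the levels of the 9 genes was not tested.

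A further dendritic class, cDC2-like cells led by genes of the cell cycle, numbered 171 and 221. There Ldha was at 180 [157 to 204] and 192 [172 to 213] CPM, above its point estimates in the 6 classes, and Aldoa at 80.0 and 49.8 CPM was below its erythroid-like level. T lymphocyte-like cells, 62 and 93 in number, had Ldha at 219 and 238 CPM. Cluster 1, which passed 6 of 7 cDC2 markers but was left unnamed, had Ldha at 148 and 141 CPM. EBI-like cells, 4903 and 807 in number, held both macrophage and erythroid RNA and had summed levels of 992 and 727 CPM, between those of erythroid-like and RPM-like cells. Hk1 was at 33.5 and 21.1 CPM there. Neutrophil-like cells numbered 279 and 13. In the wild-type-labelled library they had Gpi1 at 639 [605 to 675], Pkm at 457 [428 to 488] and Pgk1 at 382 [356 to 410] CPM. These levels and their summed level of 2423 CPM were above those of Ly6c-high monocyte-like cells.

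The classes also used different genes for the same step, as shares of a family's UMIs show. Hk1 gave 86.4% [85.4 to 87.3%] and 88.3% [84.8 to 91.2%] of the hexokinase UMIs of erythroid-like cells, but 7.27% [6.13 to 8.54%] and 3.60% [2.44 to 5.10%] of those of RPM-like cells. RPM-like cells instead used Hk2, at 53.1% and 41.4%, and Hk3, at 39.6% and 55.0%. In Ly6c-high monocyte-like cells Hk2 was the main hexokinase, with 62.7% and 61.1%. Hk1 also had the largest share in B lymphocyte-like cells, at 47.2% [35.3 to 59.3%] and 49.8% [43.4 to 56.2%]. In mature DC-like cells it had 22.4% and 44.1%, against 46.4% and 35.8% for Hk2. Hk3 is a hexokinase known from blood cells, and its share in RPM-like cells exceeded that of Hk2 in the SCD-labelled library and fell short of it in the wild-type-labelled library.

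Phosphofructokinase, which is not among the 10 genes, had a form that was the main one only in erythroid-like cells. The muscle-type gene Pfkm gave 63.6% [60.8 to 66.2%] and 69.0% [60.7 to 76.5%] of the family's UMIs in erythroid-like cells, and at most 7.71% in any other of the 6 classes in either library. For pyruvate kinase, Pklr, the form of liver and red cells, gave 17.1% [15.3 to 19.2%] and 15.9% [8.72 to 25.6%] in erythroid-like cells, with Pkm the rest, and 0.538% and 0.133% in RPM-like cells. Pkm UMIs thus outnumbered Pklr UMIs in erythroid-like cells. Summed macrophage markers stood at 26.8% and 13.9% of their RPM-like level in these cells, and their part in the Pkm UMIs was not tested.

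Eno1 and Ldha were the main forms except in a few classes. Eno3, the muscle enolase, gave 74.2% and 68.8% of enolase UMIs in Ly6c-low monocyte-like cells and 71.2% and 75.8% in mature DC-like cells, against 11.3% and 11.8% in Ly6c-high monocyte-like cells. Eno2, known from neurons, gave 18.7% and 19.4% in mature DC-like cells. Ldhb, the subunit of oxidative tissues, gave 64.0% [59.3 to 68.6%] of lactate dehydrogenase UMIs in mature DC-like cells of the wild-type-labelled library and 26.0% [20.9 to 31.7%] in the SCD-labelled library, so that Ldha was the minor form in the first and the major form in the second.

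Transport into and out of the cell differed in the same way. Of the UMIs of Slc2a1 and Slc2a3, a glucose transporter of high affinity, Slc2a1 gave 23.6% [18.4 to 29.6%] in erythroid-like cells of the wild-type-labelled library and 28.6% [8.39 to 58.1%] in the other, where only 14 UMIs were counted, but 80.2% and 80.0% in Ly6c-high monocyte-like cells. Of the UMIs of Slc16a1 and Slc16a3, the lactate carrier Slc16a1 gave 98.8% and 99.4% in erythroid-like cells. It also gave 83.5% and 89.1% in RPM-like, 100% and 97.2% in B lymphocyte-like and 72.2% and 46.7% in mature DC-like cells. Slc16a3, the lactate exporter of strongly glycolytic cells, gave 80.7% and 94.6% in Ly6c-high and 93.3% and 93.1% in Ly6c-low monocyte-like cells.

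**Figure D2:**
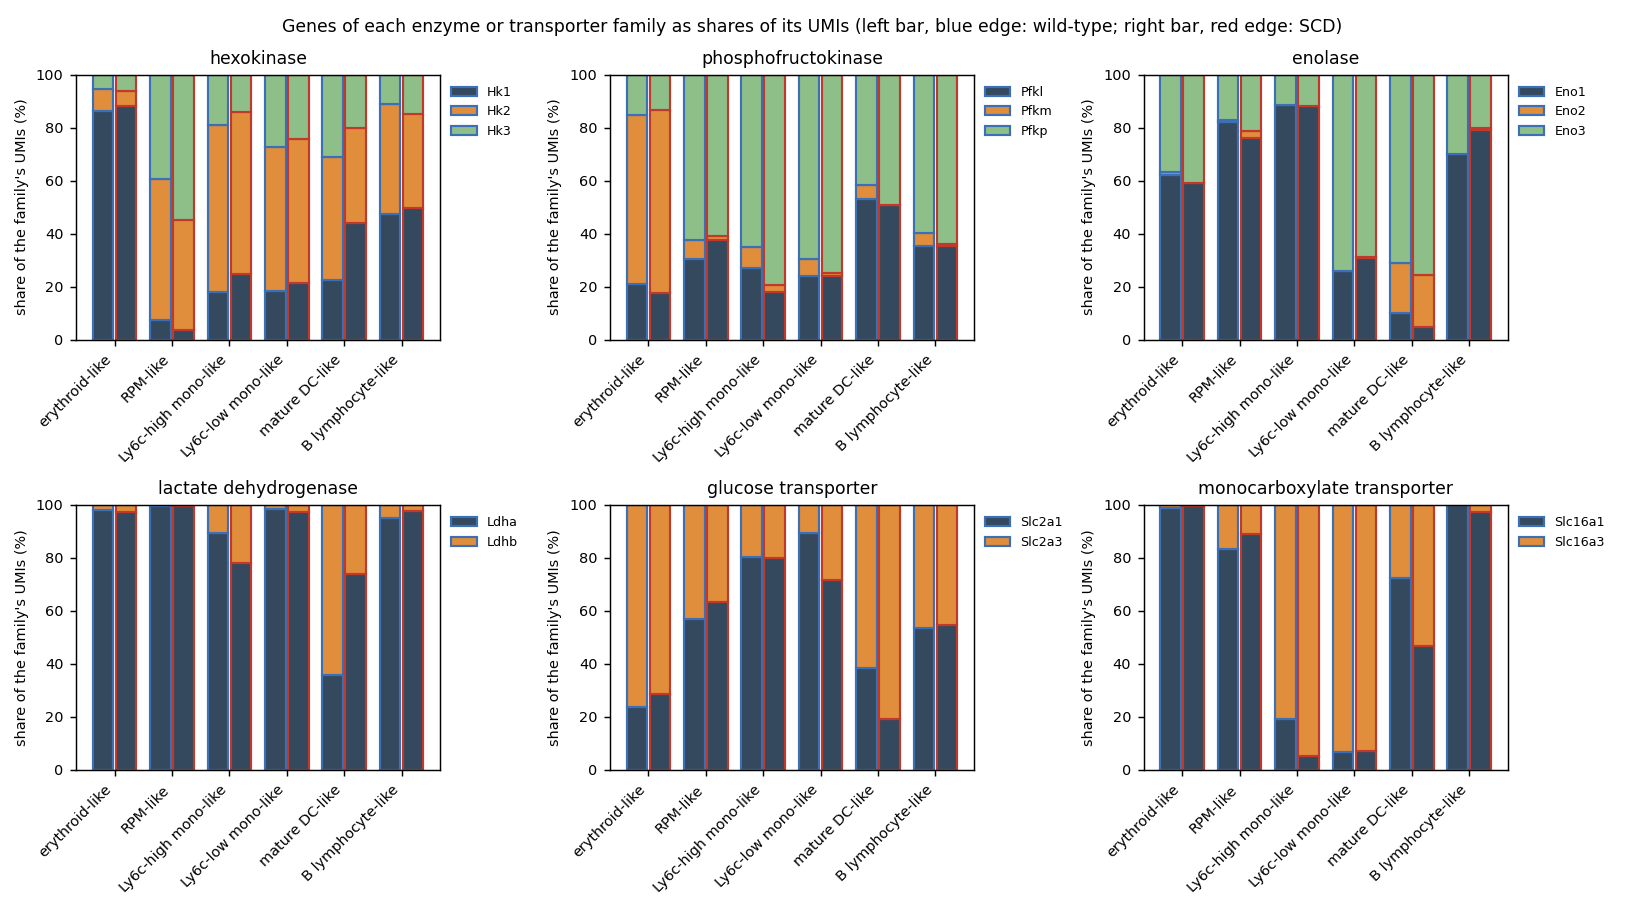
Shares of UMIs, in percent, within 6 enzyme or transporter families, by cell class, with the wild-type-labelled library as the left bar and the SCD-labelled library as the right bar of each pair. Hk1 fills 86.4% and 88.3% of the hexokinase bars and Pfkm 63.6% and 69.0% of the phosphofructokinase bars only in erythroid-like cells, and Eno3 fills most of the enolase bars in Ly6c-low monocyte-like and mature DC-like cells.

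Within the erythroid-like class, 3 clusters were told apart by their leading genes. Cluster 11 was led by Car1, the replication gene Cdc6 and Rrm2, cluster 7 by the mitosis gene Ube2c and the erythroid gene Hemgn, and cluster 18 by Xpo7 and Tmcc2. Hemoglobin genes made up 2.0% and 6.5% of UMIs in cluster 11, 3.3% and 12.2% in cluster 7, and 7.0% and 26.6% in cluster 18 of the libraries labelled wild-type and SCD, and genes of the cell cycle were at 8910 and 10504, 7775 and 9921, and 1040 and 729 CPM. Cluster 18 thus had the most hemoglobin and the least cell-cycle RNA in both libraries.

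Hk1 was at 230 [220 to 240] and 214 [186 to 246] CPM in cluster 11, at 201 [192 to 209] and 201 [170 to 236] CPM in cluster 7, and at 115 [101 to 131] and 58.2 [35.1 to 90.9] CPM in cluster 18. Its level was therefore lowest in the cells with the most hemoglobin, in both libraries. Hk2 was at 7.11 [5.50 to 9.05] and 2.06 [0.250 to 7.45] CPM in cluster 11, at 30.6 [27.4 to 34.1] and 24.3 [14.4 to 38.4] CPM in cluster 7, and between these levels in cluster 18 of both libraries. Pkm was at 30.3 [26.9 to 34.0] and 12.4 [6.39 to 21.6] CPM, at 80.0 [74.6 to 85.5] and 70.2 [52.4 to 92.1] CPM, and at 55.7 and 15.3 CPM in the same clusters. Hk2 and Pkm thus had their highest level in cluster 7 of both libraries, as did Gpi1, Pgk1 and Eno1. In the SCD-labelled library the cluster 7 intervals of Hk2, Pgk1 and Eno1 each overlapped that of another cluster. The interval of Eno1 did so in the wild-type-labelled library too. Macrophage markers peaked in cluster 7 too, at a summed 10087 and 5016 CPM, against 3476 and 2104 CPM in cluster 11 and 7853 and 2776 CPM in cluster 18. Their part in the levels of Hk2, Pkm, Gpi1, Pgk1 and Eno1 was not tested.

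Summed over the 10 genes, the levels were 681 and 510 CPM in cluster 11, 793 and 636 CPM in cluster 7 and 542 and 233 CPM in cluster 18. Of all cells in cluster 7, 30.1% were scored as doublets, against 4.12% in cluster 11 and 0.518% in cluster 18, and their part in these levels was not tested. In the wild-type-labelled library the automatic threshold called 0 cells, and the 10.5% of cells with the highest scores were taken as doublets.

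**Figure D3:**
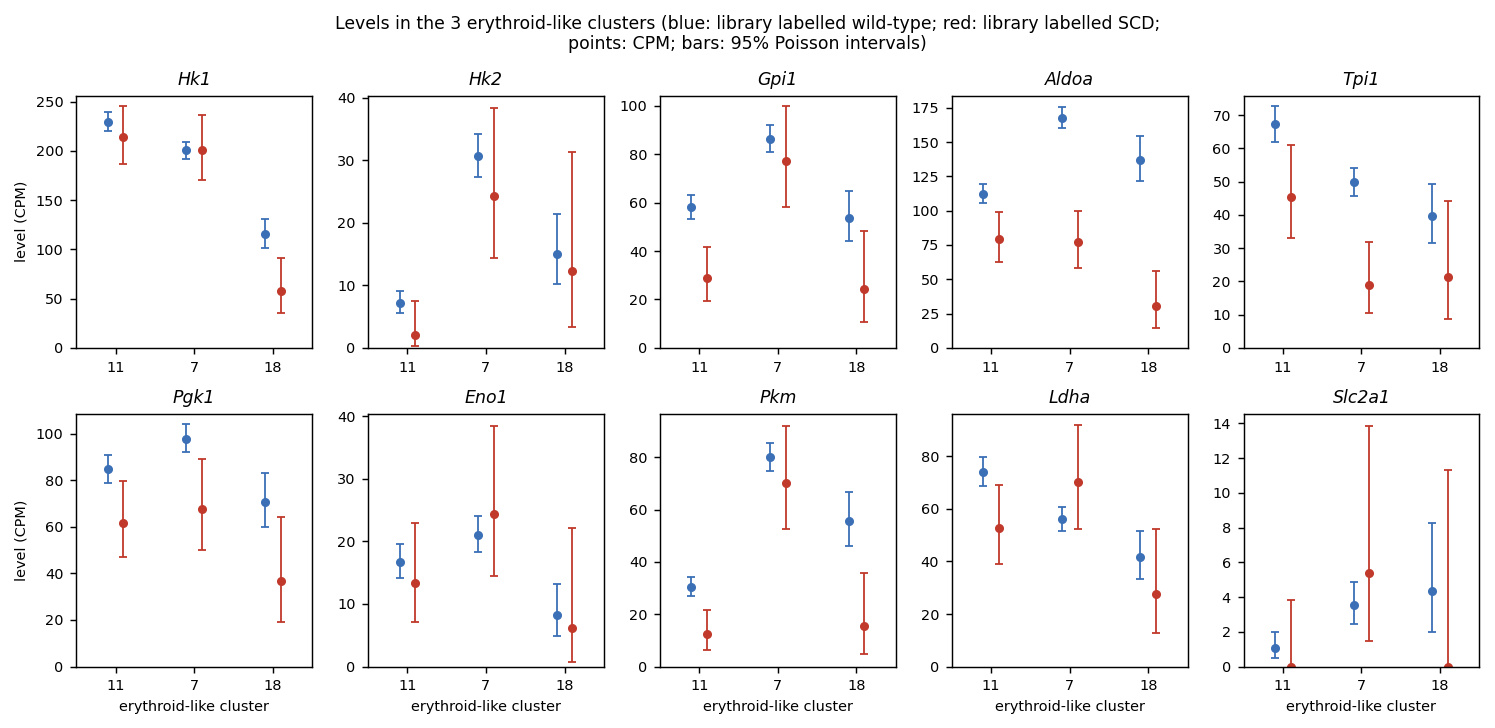
Levels of the 10 genes in CPM in the erythroid-like clusters 11, 7 and 18, with 95% Poisson intervals as bars, in the wild-type-labelled library (blue) and the SCD-labelled library (red). Hk1 is lowest in cluster 18, at 115 and 58.2 CPM, and Hk2 and Pkm are highest in cluster 7.

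Between the libraries, most of the 10 genes were lower under the label SCD in erythroid-like cells. A gene was counted as different when it was past 1.5-fold and had at least 100 UMIs in the class over both libraries, which is a size and not a test. Of the 9 genes with enough UMIs, 5 were past this limit as lower and 0 as higher, where 18.0% and 5.05% of 9549 genes were past it. Their median log2 ratio was -0.64, beside -0.14 for all genes. The genes past the limit were Aldoa, at -1.0 [-1.25 to -0.76], Tpi1, at -0.82 [-1.20 to -0.46], Pkm, at -0.74 [-1.11 to -0.39], Hk2, at -0.70 [-1.36 to -0.11], and Gpi1, at -0.64 [-0.96 to -0.34] on the log2 scale. Hk1 was at -0.15 [-0.31 to 0.00], close to the median of all genes. Summed macrophage markers went from 7070 to 3270 CPM in erythroid-like cells, and their part in these ratios was not tested.

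The erythroid-like ratio depended on the scale. Without hemoglobin UMIs in the total, the median of all genes rose by 0.14 on the log2 scale, and the median of the 10 genes was -0.51, with 3 genes past the limit. With scran size factors it was -0.25, also with 3. Relative to the median of all genes, the median of the 10 genes was at -0.50 with and without hemoglobin UMIs and at -0.25 with scran size factors. Among genes counted in both libraries, the higher ones made up 22.1% of those past the limit, 40.0% without hemoglobin UMIs and 49.1% with scran size factors. Aldoa was past the limit as lower under every alternative, and Gpi1, Hk2 and Pkm lost that place under at least 2. The makeup of the class moved as well: cluster 18 held 22.6% of erythroid-like cells under the label wild-type and 35.4% under the label SCD. Within clusters the median was -0.50 in cluster 11, -0.19 in cluster 7 and -1.13 in cluster 18, with 8 of 8, 6 of 9 and 5 of 5 measured genes below 0. The median of all genes within a cluster was not computed. In cluster 18 hemoglobin genes rose from 7.0% to 26.6% of UMIs, and its measured genes had 5 to 19 UMIs each under the label SCD. The part of hemoglobin UMIs in the median of cluster 18 was not tested.

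In RPM-like cells 3 of 10 genes were past the limit as lower and 0 as higher, where 9.43% and 24.2% of 9978 genes were. The median log2 ratio was -0.41 for the 10 genes and 0.19 for all genes. Hk1 was at -0.99 [-1.61 to -0.41], Tpi1 at -0.73 [-0.88 to -0.57] and Aldoa at -0.70 [-0.79 to -0.62], and Ldha at 0.14 [0.03 to 0.26]. The 2 libraries drew these cells from different clusters. Cluster 0, led by Marco, Lox and Cd5l, and cluster 12, with Abcc5 and Mertk among its leading genes, held 76.4% and 22.9% of RPM-like cells under the label wild-type, and cluster 5, led by Rgs1 and Adamdec1, held 94.7% of those under the label SCD. Cluster 0 was the only one with at least 50 cells in each library, with 3618 and 81 cells, and gave a median of -0.31 with 6 of 8 genes below 0. The median of all genes in cluster 0 was not computed. Hk1 in that cluster was at a log2 ratio between 1.14 and 3.61 from 86 and 7 UMIs, the opposite direction to the class, and the RPM-like ratio of Hk1 was within the limit, at -0.49 and -0.33, with scran size factors and with the mean of single-cell CPM.

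The monocyte-like classes differed less. In Ly6c-high monocyte-like cells 1 of 10 genes, Aldoa, was past the limit as lower, at -0.77 [-0.88 to -0.66], and 0 as higher, where 10.6% and 9.0% of genes were, and the medians were -0.18 and 0.02. With all variable genes in the clustering, Aldoa was at 0.02 there. Eno1 lay just within the limit, at 0.58 [0.41 to 0.74]. In Ly6c-low monocyte-like cells 1 of 9, again Aldoa, at -0.73 [-0.89 to -0.58], was lower and 0 higher, where 6.52% and 10.6% of genes were, and the medians were -0.02 and 0.09. The first of these was above 0, by up to 0.06, under 4 of 13 alternatives. From the label wild-type to the label SCD, summed macrophage markers went from 6910 to 1486 CPM in Ly6c-high monocyte-like cells. In Ly6c-low monocyte-like cells they went from 10556 to 6464 CPM. The part of macrophage RNA in the ratios of both classes was not tested.

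In mature DC-like cells 3 of 9 genes were past the limit as lower and 1 as higher, where 12.7% and 9.92% of genes were, with medians of -0.37 and 0.00. With all variable genes in the clustering the median was -1.05 and 8 genes were lower, and with the libraries clustered separately it was -0.93 and 7 were lower. Tpi1 was at -1.35 [-1.86 to -0.86], Aldoa at -0.82 [-1.04 to -0.60] and Pgk1 at -0.80 [-1.08 to -0.53]. Summed macrophage markers went from 9673 to 3574 CPM in mature DC-like cells, and their part in these ratios was not tested. Hk1 was the higher gene, at 1.05 [0.41 to 1.72] from 28 and 79 UMIs, and was at 0.22 with all variable genes in the clustering and at 0.21 with the libraries clustered separately. B lymphocyte-like cells had 0 of 10 genes past the limit as lower and 1 as higher, where 4.32% and 6.73% of genes were, with medians of -0.24 and 0.06. The higher gene was Slc2a1, at 0.62 [0.05 to 1.23], which was at 0.50 at a clustering resolution of 2. Ldha was within the limit in each of the 6 classes, with log2 ratios between -0.18 and 0.24.

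**Figure D4:**
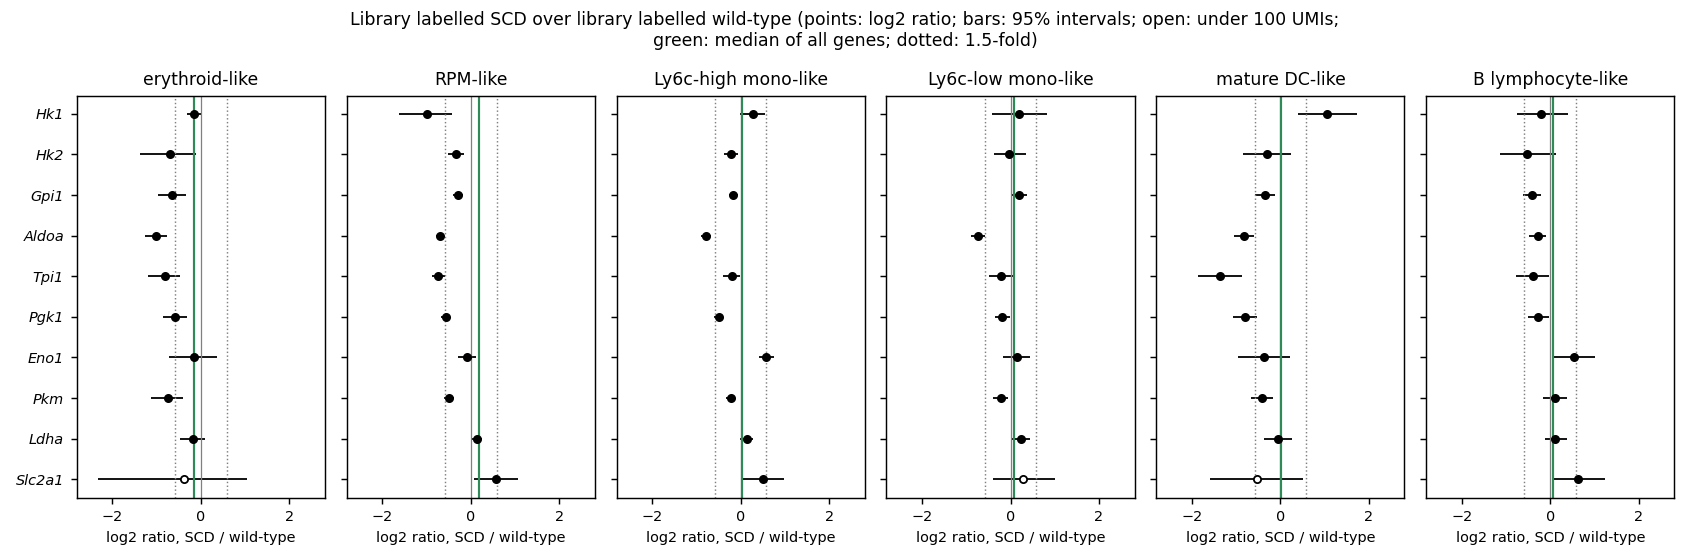
Log2 ratio of the SCD-labelled library over the wild-type-labelled library for the 10 genes in 6 cell classes, with 95% intervals as bars, open points for genes under 100 UMIs, the median of all genes as a green line and 1.5-fold as dotted lines. Aldoa lies left of the dotted line in 5 classes, from -0.70 to -1.0, and Ldha stays between -0.18 and 0.24.

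Of 30 other genes of the pathway and its branches, 23 had enough UMIs in both libraries, 6 of them highest and 6 lowest in erythroid-like cells in both. The shares of all genes highest or lowest there were not counted. Bpgm, which makes the bisphosphoglycerate that lowers the oxygen affinity of hemoglobin, was at 554 [544 to 564] and 838 [799 to 879] CPM in erythroid-like cells, and Minpp1, a phosphatase that can remove this compound, at 198 and 181 CPM. The lactate carrier Slc16a1 was at 316 [309 to 324] and 526 [495 to 559] CPM, Pfkm at 36.9 and 48.1 CPM and Pfkfb2, an isoform of the enzyme that sets the level of a phosphofructokinase activator, at 8.55 and 10.8 CPM. Among the 6 classes these genes were highest in erythroid-like cells, as Hk1 was, although the interval of Pfkfb2 overlapped that of RPM-like cells in the SCD-labelled library. In the other 5 classes Bpgm was between 14.7 and 191 CPM and Slc16a1 between 1.93 and 16.9 CPM.

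Other genes of the list were with the monocyte-like or dendritic classes. Pfkfb3, which drives glycolytic flux in activated cells, was at 375 [351 to 402] and 441 [418 to 465] CPM in mature DC-like cells and at 10.0 and 6.87 CPM in erythroid-like cells. Pgam1 was highest in Ly6c-high monocyte-like cells, at 175 and 120 CPM, and lowest in erythroid-like cells, at 41.9 and 19.1 CPM, as was Pfkp, at 47.8 and 77.6 against 8.88 and 9.33 CPM. Slc16a3 reached 99.4 and 75.6 CPM in Ly6c-low monocyte-like cells. Hk3, Eno2, Eno3, Ldhb, Slc2a3, Pgm2 and Tigar also differed by 4-fold or more between classes in both libraries.

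Between the libraries, Gapdh, the enzyme before Pgk1, was past the limit as lower in 5 of 6 classes, from 173 to 60.4 CPM in erythroid-like and from 232 to 71.9 CPM in RPM-like cells, log2 ratios of -1.52 [-1.79 to -1.26] and -1.69 [-1.82 to -1.56]. Gapdh has many near-identical copies in the genome, so its counts are uncertain. Pgam1 was lower in 3 classes and Pgm1 in 3, while Pfkfb4 was higher in 4, with 0.76 [0.55 to 0.97] in Ly6c-high monocyte-like cells, at 84.7 CPM in the SCD-labelled library. Bpgm was higher in erythroid-like cells, at 0.60 [0.53 to 0.67], and lower in the other 5 classes. Summed erythroid markers were also lower under the label SCD in each of these 5 classes. They went from 706 to 154 CPM in RPM-like and from 1455 to 373 CPM in mature DC-like cells. The part of erythroid RNA in the Bpgm ratios of the 5 classes was not tested. Over the whole list the counts as higher and lower were 3 and 6 of 20 in erythroid-like, 2 and 6 of 20 in RPM-like, 4 and 4 of 17 in Ly6c-high and 3 and 3 of 15 in Ly6c-low monocyte-like, 3 and 4 of 13 in mature DC-like and 0 and 2 of 12 in B lymphocyte-like cells. The shares of all genes were 5.05% and 18.0% in erythroid-like, 24.2% and 9.43% in RPM-like, 9.0% and 10.6% in Ly6c-high and 10.6% and 6.52% in Ly6c-low monocyte-like, 9.92% and 12.7% in mature DC-like and 6.73% and 4.32% in B lymphocyte-like cells.

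**Figure D5:**
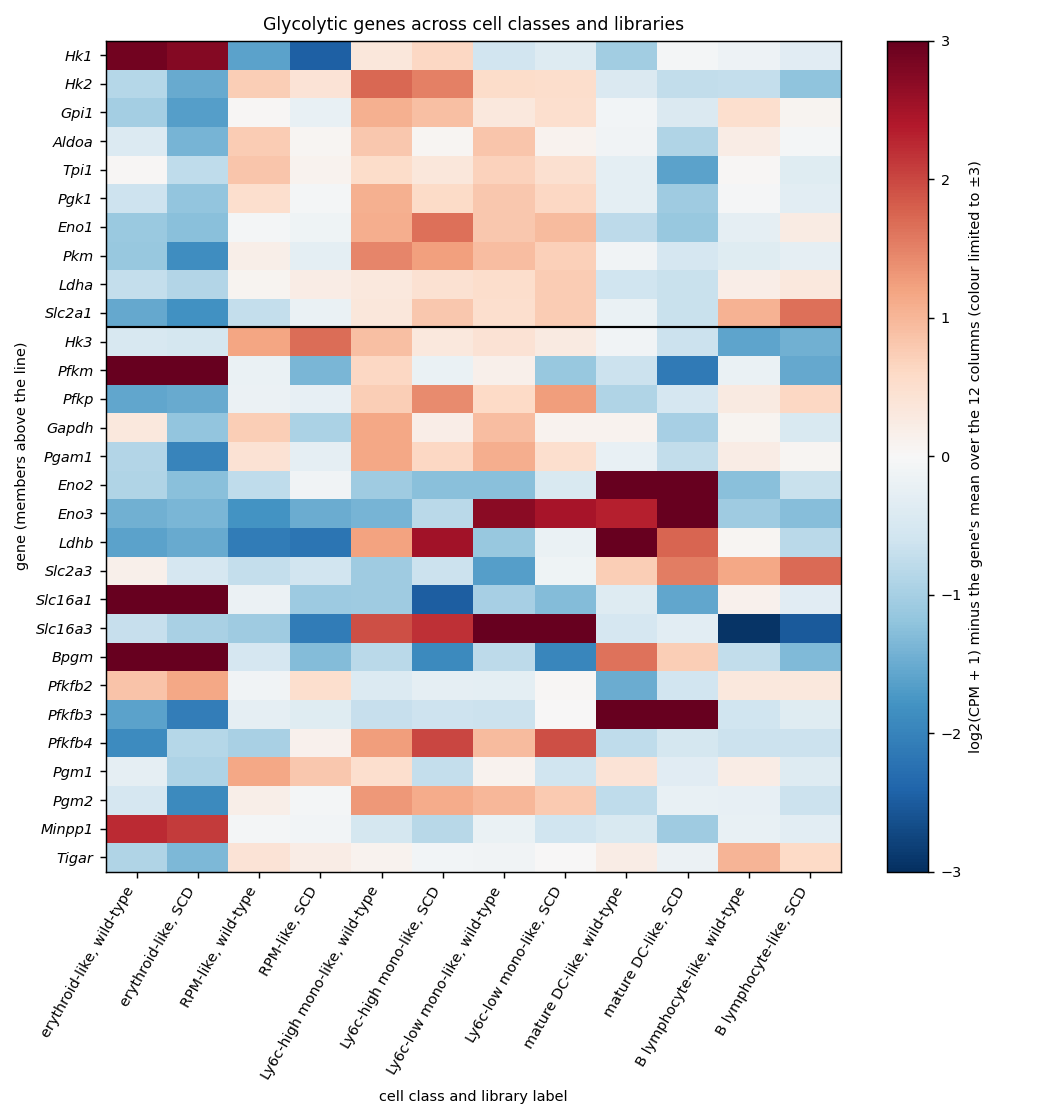
Heat map of the 10 genes (above the line) and the 19 named pathway genes (below) over 6 cell classes of each library, as log2(CPM + 1) minus the mean of the gene over the 12 columns, with the colour limited to 3 on either side. Hk1, Pfkm, Slc16a1, Bpgm and Minpp1 are red in both erythroid-like columns, in which most of the 10 genes are blue.

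HIF-1 responds to low oxygen and to inflammatory signals and raises several of the 10 genes. A list of 12 other genes was therefore read beside them, made up of known targets and of Hif1a, which codes for a subunit of HIF-1. Of the 12, 9 had enough UMIs and 6 passed the limits for naming. Ddit4, an inhibitor of growth signalling, was past 1.5-fold as higher under the label SCD in 4 classes, among them RPM-like cells, from 99.3 [94.6 to 104] to 283 [271 to 295] CPM. Bnip3, which promotes the removal of mitochondria, was lower in 3 classes, in RPM-like cells from 27.8 to 14.6 CPM. The listed genes therefore did not share a direction. Their median log2 ratio was -0.38 in erythroid-like and -0.02 in RPM-like cells, beside -0.14 and 0.19 for all genes. Mxi1 was highest in erythroid-like cells, at 192 and 263 CPM, Ndrg1 in Ly6c-high monocyte-like cells, at 93.8 and 49.9 CPM, and P4ha1 in Ly6c-low monocyte-like cells, at 139 and 146 CPM, with RPM-like cells inside its intervals at 139 and 137 CPM. Adm was at 26.7 and 26.0 CPM in mature DC-like and at 38.8 and 9.99 CPM in B lymphocyte-like cells, and at most 1.42 CPM in the other 4 classes.

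Across 49 pairs of a cluster and a library with at least 50 cells, the genes other than Hk1 went up and down together to different degrees. A cluster with enough cells in both libraries entered once per library, and unnamed clusters were included. The highest Pearson correlation of log2(CPM + 1) was that of Gpi1 and Pkm, at 0.93, and Hk1 was negative with each of the other 9 genes, from -0.22 to -0.43. Clusters of a library share its depth and free RNA, so these are descriptions. Among 8859 genes with a mean of at least 10 CPM, the summed 10 genes were matched best by Pgam1, at 0.92, Nqo2 and Pgd, at 0.90, Kcnab2, at 0.89, and Prdx5, at 0.87. Hk1 was matched best by Ago2 and Ammecr1, at 0.85, Asns and Gid8, at 0.83, and Cox17, at 0.82. For Hk2 these genes were Arpc1b, at 0.91, Rnpep, at 0.90, and Fes, Soat1 and Dhrs7, at 0.89, and for Slc2a1 they were Mmgt2, at 0.90, Gm37082, Slc44a2 and Trim35, at 0.88, and Gm37474, at 0.87.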

How the data were processed

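Single-cell 3′ libraries of F4/80-enriched spleen cells, 1 per condition, were analysed. The authors aligned the reads and called cells, and the deposited values are their unnormalized UMI counts for each gene in each barcode. The submitters' processing notes name Cell Ranger 4.0.0 and GRCm38.p6, whereas the matrix headers name 3.1.0. Whether reads shared by several genes were dropped, and whether strand was used, is not given in the sources used here.

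From these counts, a cell was kept if it had between 500 and 5000 genes, less than 15% of UMIs from mitochondrial genes and less than 30% from ribosomal-protein genes. Size factors came from scran 1.30.0 (R 4.3.3). The glycolytic, hemoglobin and sex-linked genes and the heme and iron genes of the study were removed before clustering. The 2000 most variable of the remaining genes were reduced to 30 principal components. The graph of 15 neighbours was clustered with leidenalg 0.10.2 at resolution 1 in scanpy 1.11.5. Classes were named from marker lists, and a name needed at least 3 markers. The glycolytic genes, gene lists and markers were chosen with earlier results of these data known, and the limits for naming were set after clusters had been seen. Cells scored as doublets by Scrublet were left in. Its threshold gave 1712 (13.9%) under the label SCD and 0 under the label wild-type, where the 2046 highest-scoring cells were taken instead. These calls served the alternative without doublets and the doublet shares of clusters. A cluster with over 50% of its cells scored as doublets was left unnamed.

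Levels are CPM of summed UMIs with 95% exact Poisson intervals, and ratios of the libraries have exact conditional binomial intervals. Shares of cells and of UMIs have exact binomial intervals. No test between conditions or classes was made. Named besides the 10 genes were listed genes with at least 100 UMIs in each library that differed by 4-fold or more between classes in both libraries or were past 1.5-fold between the libraries in at least 3 classes, and the 5 genes most correlated with the sum, Slc2a1, Hk1 and Hk2. Pklr and the genes that lead clusters were named outside this rule, after their values had been seen. The computation of the ratios was checked on simulated counts with counting error only. The simulation held no variation between mice, so it cannot show whether the ratios would hold in other mice. Gene positions are from GENCODE M21 (GRCm38). The upstream sequences were taken from a RefSeq table of 32851 windows. Alternatives changed the total, the weight of cells, the normalization, cell filters, doublets, the clustering, the filter on low counts and the depth of thinning, and 2 were added after seeing the data: leaving out shared barcodes and weighting clusters equally.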

Additional observations from a re-analysis of the deposited data

Results flagged for a closer look

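The log2 ratio of Hk1 between the libraries had opposite signs in 2 classes, 1.05 in mature DC-like and -0.99 in RPM-like cells, both past 1.5-fold. The difference between the classes was not tested. The values rest on 28 and 79 UMIs in mature DC-like cells and on 136 and 30 UMIs in RPM-like cells, in the libraries labelled wild-type and SCD.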

How the results depend on the processing

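Of 80 median log2 ratios of the 10 genes recomputed under the alternatives, 76 stayed within a range around the value reported. The ends of this range were the medians of the single genes' lower and upper interval ends, which is not the counting error of the median. In erythroid-like cells it ran from -0.96 to -0.32, where the interval of the summed genes ran from -0.59 to -0.41. The reported medians were all below 0, and 4 of the 80, in Ly6c-low monocyte-like cells, were above it, by up to 0.06. The medians that moved were -0.25 with scran size factors in erythroid-like cells (reported -0.64), -0.30 at resolution 2 in Ly6c-high monocyte-like cells (reported -0.18), and -1.05 with all most variable genes and -0.93 with the libraries clustered separately in mature DC-like cells (reported -0.37). The number of genes lowest in erythroid-like cells in both libraries was 3 with scran size factors, 5 at resolution 0.5 and 4 with all most variable genes, against 8, and by shares of cells with a UMI it was 7 at 2000 UMIs against 4 at 1000 UMIs. Of 731 ratios of single genes 680 stayed within their intervals, 50 moved, and that of Aldoa in Ly6c-high monocyte-like cells reversed, from -0.77 to 0.023, with all most variable genes. The cause was not tested. In B lymphocyte-like cells the higher genes made up 60.8% of those past 1.5-fold, 50.1% with the libraries clustered separately and 44.1% with no filter on low counts; in erythroid-like cells the last 2 gave 47.1% and 43.8%, and all most variable genes 38.1%. The Hk1 level of erythroid-like over RPM-like cells ranged from 18.3-fold to 31.8-fold and from 18.2-fold to 64.1-fold. No paired analysis was possible because each condition had 1 library. Depth limits Slc2a1 most, with 4 UMIs in erythroid-like cells of the SCD-labelled library.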
